A study of Mus musculus with 10 samples.

Results

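Described here are 34 genes of sugar breakdown: the glucose transporters, the enzymes of glycolysis, the lactate dehydrogenases and lactate transporters, the pyruvate dehydrogenase complex with its kinases, and the pentose phosphate pathway. They were chosen by symbol from a list, and all 34 had a row among the 11011 genes of the count table. The measurements are ribosome profiles, that is, sequenced mRNA fragments that ribosomes protected from nuclease, in E14, a line of mouse embryonic stem cells. The groups were WT (Wild Type), Dgcr8 knockout, Drosha knockout, Dicer knockout and Ago1&Ago2 double knockout, with 2 libraries each. All 5 groups share the 129/Ola background, medium with serum and LIF on gelatine, and a short cycloheximide treatment before lysis, and the labels give neither clone numbers nor the knockout alleles. The missing proteins make or carry microRNAs (miRNAs), and the series set out to record ribosome occupancy with and without them. No matched mRNA libraries were analysed here, so a change in footprints includes any change in mRNA amount.

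Glucose enters cells through the transporters Slc2a1 (GLUT1) and Slc2a3 (GLUT3), is phosphorylated by hexokinase, split by aldolase and turned into pyruvate with a gain of ATP. Pyruvate is either reduced to lactate, which leaves through the monocarboxylate transporters Slc16a1 (MCT1) and Slc16a3 (MCT4), or enters mitochondria through pyruvate dehydrogenase, which the Pdk kinases inhibit. The pentose phosphate pathway branches off after hexokinase and yields NADPH and the ribose of nucleotides. Pluripotent stem cells are known for a high rate of glycolysis with lactate release, and many of these genes are known targets of the hypoxia-inducible factor HIF and of Myc.

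Total counts ran from 1754710 in Dicer knockout library 2 to 80850950 in library 1 of the Dgcr8 group, a 46.1-fold range. Footprints on Drosha, Dicer1 and Ago2 fell in the knockouts named for them (edgeR's quasi-likelihood test with Benjamini-Hochberg adjustment, adjusted p = 0.0067, 0.0026 and 0.0059), and Ago1 in the Ago1&Ago2 double knockout had a log2 fold change of 0.37 (edgeR adjusted p = 0.67). Dgcr8 footprints rose in the libraries labelled Dgcr8 knockout, to 145 and 146 CPM (counts per 1000000, with library sizes scaled by TMM) against 32.7 and 33.1 in WT (edgeR adjusted p = 0.015). Dgcr8 footprints were also higher than in WT in the Drosha knockout, at 169 and 197 CPM (edgeR adjusted p = 0.0028). The same held in the Dicer knockout (64.5 and 76.1 CPM, edgeR adjusted p = 0.021). In the Ago1&Ago2 double knockout they were 74.6 and 63.5 CPM (edgeR adjusted p = 0.047). The rise was thus not particular to the Dgcr8 label, and its cause was not tested. As Dgcr8 footprints did not fall under the Dgcr8 knockout label, every direction given for that group concerns libraries labelled so. The 10 embryonic stem cell markers were all present, with a summed level between 4596 and 5871 CPM in every library. Of these 10, 1 was called lower in the Drosha knockout, 2 in the Dicer knockout, Lin28a among them, and 1 in the Ago1&Ago2 double knockout. Of all genes tested 0.966%, 3.76% and 0.902% were called lower there. Footprints of 11 primitive endoderm markers (Foxa2, the twelfth listed, was not in the table) summed to 9818 and 10713 CPM in WT and to between 1495 and 2500 CPM in the Drosha, Dicer and Ago1&Ago2 knockouts, while the libraries labelled Dgcr8 knockout held 6402 and 1713 CPM. Their part in the results below was not tested.

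**Figure D1:**
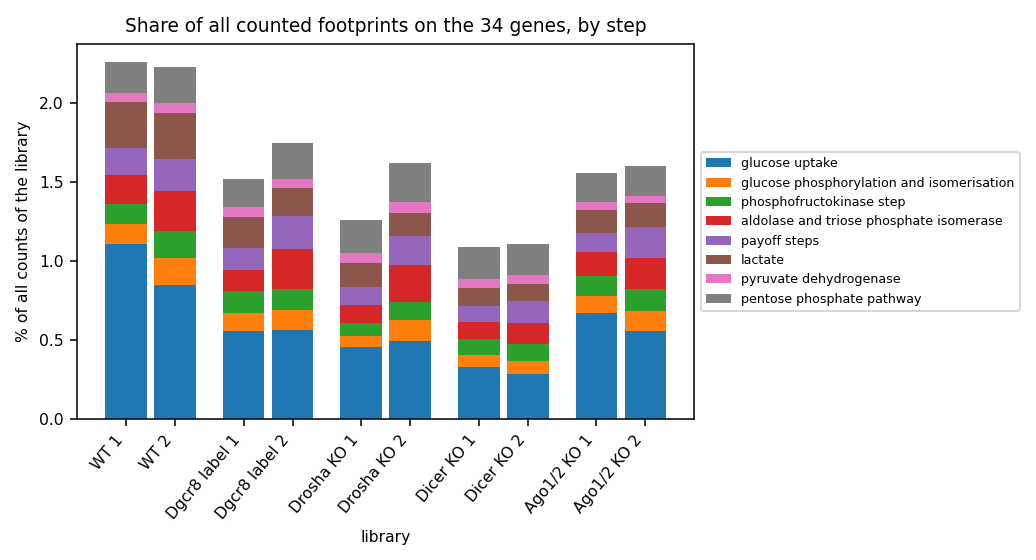
Share of all counted footprints (vertical axis, % of all counts of the library) that lay on the 34 genes in each of the 10 libraries (horizontal axis), stacked by step of the pathway. The bars reach 2.26% and 2.23% in WT and 1.09% and 1.11% in the Dicer knockout, and the blue part, glucose uptake, shrinks most in absolute terms.

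The 34 genes took up less of the ribosome footprints in each knockout group than in WT. They held 2.26% and 2.23% of all counts in the WT libraries, 1.52% and 1.75% in those labelled Dgcr8 knockout, 1.26% and 1.62% with Drosha knocked out, 1.09% and 1.11% with Dicer knocked out, and 1.56% and 1.60% in the Ago1&Ago2 double knockout. No knockout library reached the lower WT library. The 4 transporters alone went from 1.26% and 0.968% in WT to 0.377% and 0.319% in the Dicer knockout, and the other 30 genes from 1.00% and 1.26% to 0.711% and 0.792%. In the Drosha knockout those 30 genes held 0.737% and 1.09%, and in the libraries labelled Dgcr8 knockout 0.883% and 1.12%, so that both groups overlapped with WT. The pentose phosphate genes kept a mean share of 0.198% ± 0.003 (SD, n = 2) in the Dicer knockout against 0.212% ± 0.022 in WT, and the pyruvate dehydrogenase genes 0.059% ± 0.002 against 0.059% ± 0.004. In such bulk libraries fewer cells of a type and less RNA per cell cannot be told apart.

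Read per gene, the Dicer comparison held the most calls. All 34 genes passed the filter on low counts, and each gene was tested with edgeR's quasi-likelihood test, with Benjamini-Hochberg adjustment over all 10978 genes tested and a threshold of 0.05. In the Dicer knockout 7 of the 34 fell and 2 rose, where 3.76% of all genes tested were called lower and 7.35% higher. The 7 were Slc2a1, Slc2a3, Aldoc, Ldha, Ldhb, Slc16a1 and Slc16a3, and the 2 were Eno3 and Rpia. At an unadjusted p under 0.05 there were 12 lower and 3 higher, against 11.9% and 15.1% of all genes, and DESeq2 called 9 lower and 3 higher. In the Drosha knockout Slc16a3 and Aldoc fell and Eno3 rose, against 0.966% and 2.48% of all genes. There 8 were lower and 2 higher at an unadjusted p under 0.05, against 8.13% and 11.1% of all genes. DESeq2 called 8 lower and 1 higher, so that the distance between the Drosha and Dicer counts depended on the test. Of all genes DESeq2 called 341 lower and 631 higher in the Drosha knockout, against 106 and 272 with edgeR. In the Dicer knockout it called 683 and 1189, against 413 and 807. Its counts are therefore not comparable with the edgeR shares. In the Ago1&Ago2 double knockout 0 genes fell and Eno3 rose, against 0.902% and 1.98% of all genes. Its count at an unadjusted p under 0.05 was 6 lower and 3 higher, against 7.94% and 11.8% of all genes. DESeq2 and limma-voom each called 2 lower. Of all genes they called 328 and 426 lower, against 99 with edgeR. In the libraries labelled Dgcr8 knockout 0 of 34 passed in either direction, where 0.0182% of all genes were called lower and 0.0547% higher. There 5 were lower and 2 higher at an unadjusted p under 0.05, against 4.71% and 5.10% of all genes. DESeq2 called 1 lower and limma-voom 0. Of all genes DESeq2 called 58 lower under this label and limma-voom 7, against 2 with edgeR. Over all genes tested, log2 CPM of library 1 of that label correlated at 0.959 and 0.947 with the WT libraries. With library 2 of its own label it correlated at 0.928. The part of this in the counts was not tested. In the mean of the 4 knockout groups against WT 7 genes fell, namely Slc2a1, Slc2a3, Aldoc, Ldha, Ldhb, Slc16a1 and Slc16a3, and Eno3 rose, against 3.26% and 3.81% of all genes.

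Single libraries decided many of these calls. The 7 lower genes of the Dicer comparison became 3 without WT library 1 and 2 without WT library 2 or either Dicer knockout library, and the 2 higher genes became 0 without any one of these 4. For the mean of the 4 knockouts the 7 became 1 without WT library 1, 0 without WT library 2, 4 without library 2 labelled Dgcr8 knockout and 3 without Dicer knockout library 2. In the Drosha comparison the 2 lower genes became 0 without either WT library and 1 without either Drosha knockout library. Leaving out both libraries labelled Dgcr8 knockout gave 6 lower and 3 higher in the Dicer comparison and 8 lower and 2 higher for the mean. Calls over all genes tested also fell when a library of WT or of the knockout compared was left out of the Drosha and Dicer comparisons. The losses were therefore not particular to the genes of the list. Where a library is left out, the other library of its group is assumed to vary as the rest do.

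The direction of the whole list was less even than its called genes. Its median log2 fold change was -0.66 in the Dicer knockout, where the median over all genes tested was 0.00, and 24 of the 34 had both Dicer libraries below both WT libraries, against 34.6% of all genes. In the Ago1&Ago2 double knockout the median was -0.32, against 0.04 over all genes, and 20 lay below WT with no overlap, against 26.1%. The Drosha knockout had a median of -0.25 against -0.01, and 14 without overlap, against 27.9%. That median turned to 0.0015 without WT library 2 and to 0.014 without Drosha knockout library 1, and moved to -0.44 without WT library 1 and -0.63 without Drosha knockout library 2. The median of the Ago1&Ago2 comparison moved to -0.19 without WT library 2. In the libraries labelled Dgcr8 knockout the median was -0.20 against 0.02, and 14 lay below WT without overlap, against 22.9%. It moved to -0.34 without WT library 1 and to -0.39 without library 2 of that label. All 4 comparisons share the same 2 WT libraries. The 4 transporters had medians of -0.87 (labelled Dgcr8), -1.13 (Drosha), -1.63 (Dicer) and -0.70 (Ago1&Ago2), and the other 30 genes -0.15, -0.15, -0.59 and -0.24.

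**Figure D2:**
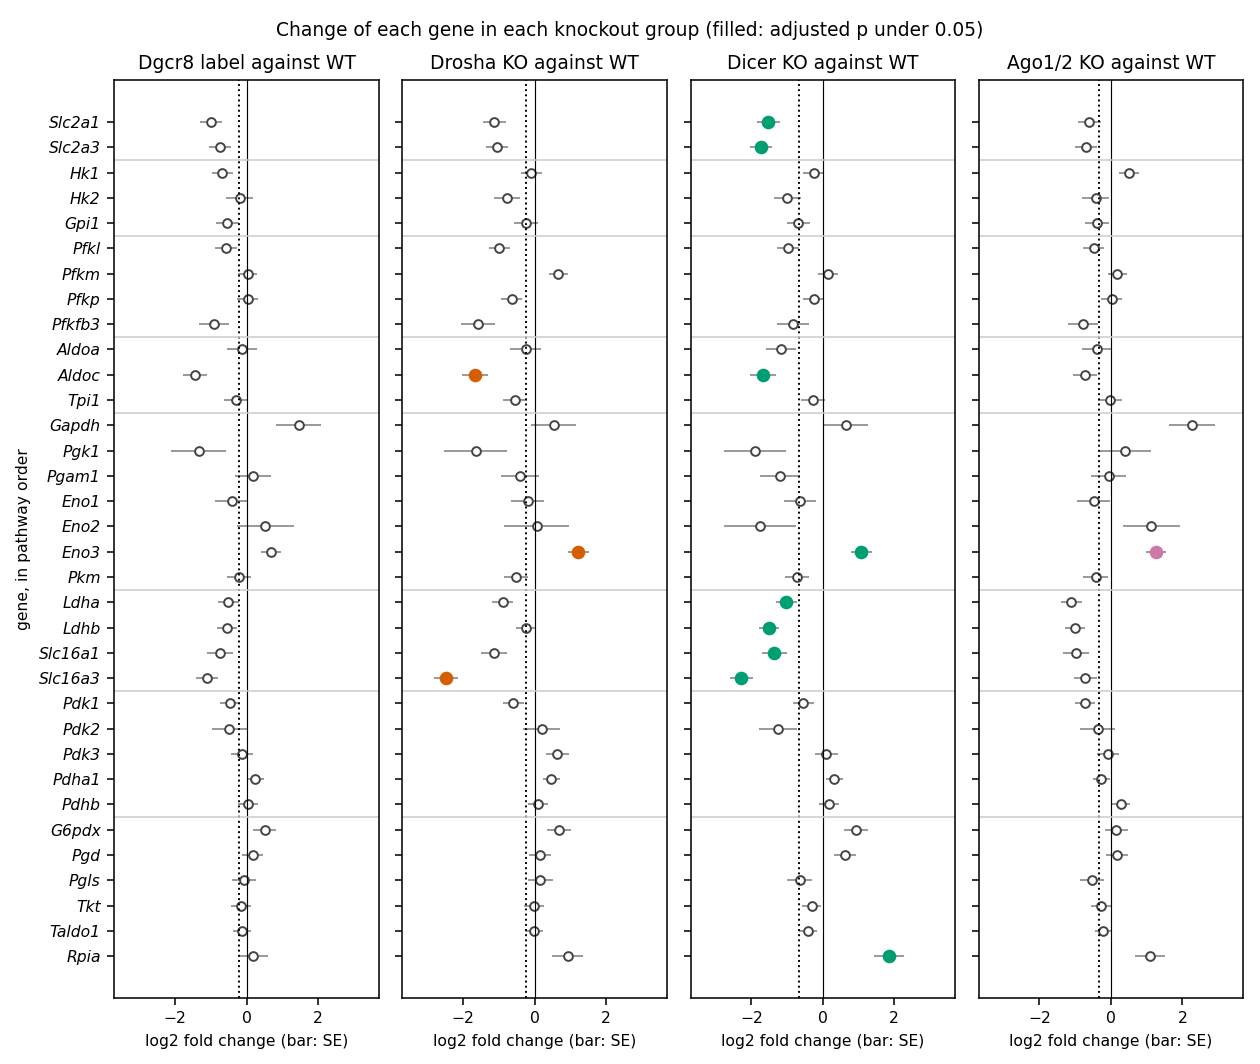
Fitted log2 fold change of each of the 34 genes (vertical axis, in pathway order) in each knockout group against WT, with SE as bars. Filled points passed an adjusted p of 0.05, the dotted line is the median of the 34 genes, and the Dicer panel holds 9 filled points, 7 of them left of 0.

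How well a gene could be counted differed within the pathway. Many glycolytic enzymes have processed pseudogenes, and 28-base stretches, about the size of a footprint, were compared with all transcripts of other genes in GENCODE M21. Of the coding sequence of Pgk1 and Pgam1 100.0% was found elsewhere too, and of Gapdh 94.3%, in 340 pseudogenes among others. Eno1 shared 90.5%, Pkm 83.1%, Pdhb 62.4%, Ldha 61.9%, Ldhb 57.8%, Gpi1 53.5%, Aldoa 46.8%, Tpi1 37.0%, Taldo1 29.3%, G6pdx 21.8% and Pdha1 7.68%. The other 20 genes shared under 1%, among them all 4 transporters, Aldoc, Eno3 and Rpia. How reads with several matches were treated is not given in the sources used here, so the counts of the first 14 are uncertain. Among the 20 nearly unique genes 5 fell and 2 rose in the Dicer knockout, against 3.76% and 7.35% of all genes. In the Drosha knockout 2 of them fell and 1 rose, against 0.966% and 2.48%. In the Ago1&Ago2 double knockout 0 fell and 1 rose, against 0.902% and 1.98%.

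**Figure D3:**
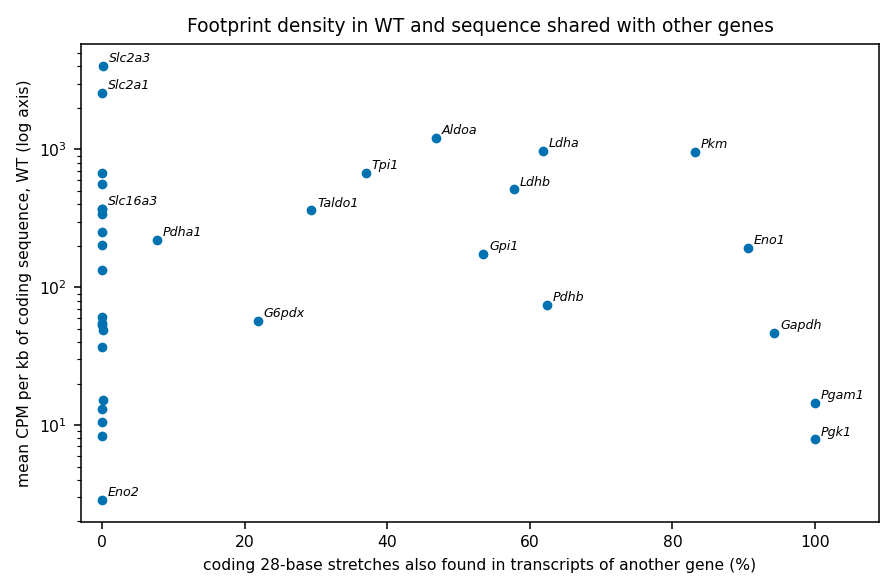
Mean footprint density in WT (vertical axis, CPM per kb of coding sequence, log axis) against the share of a gene's coding 28-base stretches found in transcripts of other genes (horizontal axis, %), 1 point per gene. Gapdh, Pgam1 and Pgk1, at the right, lie between 7.9 and 46.7 CPM per kb, while Slc2a3 and Slc2a1, at the left, lie at 4060 and 2583.

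Levels compared between genes are given per kb of coding sequence. In WT the densest footprints lay on Slc2a3, at 4060 ± 918 CPM per kb (SD, n = 2), and Slc2a1, at 2583 ± 503, with both libraries of the first above both of the second. Aldoa followed with 1216 ± 269, then Ldha with 974 ± 15.2 and Pkm with 958 ± 106, and these 3 did not differ beyond their spread. Tkt and Tpi1 had 679 ± 64.6 and 676 ± 53.5, Slc16a1 565 ± 132, Ldhb 513 ± 131, Slc16a3 372 ± 44.1 and Hk2 370 ± 72.4. Of these neighbours in the order, Tkt and Tpi1 lay within their spread, as did Slc16a1 and Ldhb, and Slc16a3 and Hk2. Gapdh, known as a very abundant glycolytic enzyme, was listed at 46.7 ± 10.3 CPM per kb, Pgk1 at 7.9 ± 1.0 and the neuronal enolase Eno2, at the bottom, at 2.9. Of these 3, Gapdh and Pgk1 are among the genes whose sequence is shared.

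Both glucose transporters fell in the Dicer knockout. Slc2a1 (chromosome 4, 119108711 to 119137983, GRCm38) is the basal transporter of most cells, and had 4345 and 3294 CPM in WT. It had 1654 and 2176 CPM in the libraries labelled Dgcr8 knockout, 1527 and 1974 with Drosha knocked out, 1477 and 1170 with Dicer knocked out, and 2822 and 2195 in the Ago1&Ago2 double knockout. All 8 knockout libraries lay below both WT libraries. The fall in the Dicer knockout was 2.89-fold (log2 fold change -1.53, SE 0.32, edgeR adjusted p = 0.013). The libraries labelled Dgcr8 knockout had 0.501 of the WT level (edgeR adjusted p = 0.33), and the other log2 fold changes were -1.13 (0.080, Drosha) and -0.61 (0.32, Ago1&Ago2). The Dicer call was lost without either WT library or either Dicer knockout library, at log2 fold changes between -1.71 and -1.33 and edgeR adjusted p between 0.063 and 0.105.

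Slc2a3 (chromosome 6, 122727809 to 122801640), a transporter of high affinity for glucose, had 6979 and 5054 CPM in WT. It had 3833 and 3379 CPM in the libraries labelled Dgcr8 knockout, 2961 and 2842 with Drosha knocked out, 2045 and 1571 with Dicer knocked out, and 3852 and 3590 in the Ago1&Ago2 double knockout. No knockout library overlapped with WT, and both Dicer libraries lay below all others. The fall in the Dicer knockout was 3.33-fold (log2 fold change -1.73, SE 0.31, edgeR adjusted p = 0.0061), lost without WT library 1 or Dicer knockout library 2 (edgeR adjusted p = 0.061 and 0.065). In the Drosha knockout the log2 fold change was -1.05 (edgeR adjusted p = 0.086). Slc2a1 made up 39.0% ± 0.8 (SD, n = 2) of the summed CPM per kb of both in WT and between 34.7% ± 6.4 and 42.4% ± 0.5 in the knockout groups.

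The next steps, hexokinase to phosphofructokinase, held no called gene. Hk2, the main hexokinase here, had 878 and 1160 CPM in WT, 826 and 953 under the Dgcr8 knockout label, 359 and 827 with Drosha knocked out, 545 and 482 with Dicer knocked out and 663 and 852 in the Ago1&Ago2 double knockout. Its Dicer libraries lay below both WT libraries, with a log2 fold change of -0.99 (SE 0.37, edgeR adjusted p = 0.11). Hk1, the hexokinase of most adult tissues, had 117 and 186 CPM in WT, 101 and 88.1 under the Dgcr8 knockout label, 128 and 155 with Drosha knocked out, 143 and 110 with Dicer knocked out and 199 and 231 in the Ago1&Ago2 double knockout. Only the last group lay wholly above WT (log2 fold change 0.51, SE 0.29, edgeR adjusted p = 0.37). As a share of the CPM per kb of Hk1 and Hk2 together, Hk1 was 11.5% and 13.4% in WT, 20.2% and 18.2% in the Dicer knockout, 22.6% and 20.8% in the Ago1&Ago2 double knockout and 25.7% and 15.4% in the Drosha knockout, all above WT, and 10.6% and 8.2% in the libraries labelled Dgcr8 knockout, below it. Gpi1, the isomerase between them and phosphofructokinase, had log2 fold changes between -0.68 and -0.24 in the 4 comparisons.

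Of the 3 phosphofructokinase subunits, Pfkl (liver type) had 486 and 696 CPM in WT and 287 and 311 in the Dicer knockout (log2 fold change -0.98, SE 0.30, edgeR adjusted p = 0.058). Pfkm (muscle type) had 75.3 and 96.9 CPM in WT and 143 and 129 in the Drosha knockout (log2 fold change 0.66). Pfkp (platelet type) had 717 and 878 CPM in WT, 663 and 675 with Dicer knocked out and 398 and 620 with Drosha knocked out. Of the summed CPM per kb of Pfkm and Pfkp, Pfkm made up 9.77% ± 0.31 (SD, n = 2) in WT and 21.9% ± 6.5 in the Drosha knockout. Pfkfb3, which makes the allosteric activator of phosphofructokinase, had 19.6 and 23.9 CPM in WT and between 5.28 and 16.4 CPM in the 8 knockout libraries. All 8 lay below WT, with the largest log2 fold change in the Drosha knockout (-1.58, SE 0.47, edgeR adjusted p = 0.094).

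Among the aldolases the less abundant form fell. Aldoc (chromosome 11, 78322968 to 78327781), the brain type, had 45.5 and 75.1 CPM in WT, 23.4 and 20.7 under the Dgcr8 knockout label, 16.4 and 21.4 with Drosha knocked out, 22.1 and 14.9 with Dicer knocked out and 31.9 and 41.5 in the Ago1&Ago2 double knockout. All 8 knockout libraries lay below WT. The fall was 3.19-fold in the Drosha knockout (log2 fold change -1.67, SE 0.36, edgeR adjusted p = 0.031) and 3.20-fold in the Dicer knockout (-1.68, SE 0.36, edgeR adjusted p = 0.013). The Drosha call was lost with limma-voom and without either WT or either Drosha knockout library (edgeR adjusted p 0.085 to 0.326), and the Dicer call without WT library 2 or either Dicer knockout library (0.068 to 0.171). In the libraries labelled Dgcr8 knockout the log2 fold change was -1.45 (edgeR adjusted p = 0.24). Aldoa, the ubiquitous form, had 1289.9 and 1767 CPM in WT and 643 and 712 in the Dicer knockout (log2 fold change -1.17, SE 0.43, edgeR adjusted p = 0.100), 1088 and 1255 in the Ago1&Ago2 double knockout, and values on both sides of WT in the other groups, such as 761 and 1798 CPM in the Drosha knockout. Tpi1, triose phosphate isomerase, had log2 fold changes between -0.55 and -0.03.

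Of the 7 genes from Gapdh to Pkm, which form the ATP-yielding part of glycolysis, Eno3 alone passed the test. Eno3 (chromosome 11, 70657202 to 70662513), the enolase of muscle, had 20.2 and 19.4 CPM in WT, 36.8 and 26.3 under the Dgcr8 knockout label, 45.4 and 46.7 with Drosha knocked out, 36.8 and 47.4 with Dicer knocked out and 45.3 and 49.2 in the Ago1&Ago2 double knockout. All 8 knockout libraries lay above WT. The rise was 2.33-fold in the Drosha knockout (log2 fold change 1.22, SE 0.29, edgeR adjusted p = 0.046), 2.12-fold in the Dicer knockout (1.08, SE 0.29, edgeR adjusted p = 0.035) and 2.39-fold in the Ago1&Ago2 double knockout (1.26, SE 0.29, edgeR adjusted p = 0.041). In the libraries labelled Dgcr8 knockout the ratio to WT was 1.61 (log2 fold change 0.68, edgeR adjusted p = 0.45). Each of these calls was lost without either WT library, either Dicer knockout library or either library of its own group, with log2 fold changes from 0.90 to 1.31 and edgeR adjusted p from 0.064 to 0.402, and the Drosha and Dicer calls also with limma-voom.

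The other enolases did not pass. Eno1, the ubiquitous form, had 216 and 289 CPM in WT and between 113 and 317 CPM in the knockout libraries, so that groups overlapped apart from the Dicer and Ago1&Ago2 knockouts, at 146 and 180 and at 164 and 196 CPM. Of the CPM per kb of Eno1 and Eno3 together, Eno3 made up 8.54% and 6.28% in WT and 20.2% and 20.8% in the Dicer knockout. Eno2 had between 0.552 and 14.6 CPM in all 10 libraries. Pkm, pyruvate kinase, had 1409.6 and 1649 CPM in WT and 853 and 1005 in the Dicer knockout (log2 fold change -0.72, edgeR adjusted p = 0.20). Gapdh had 42.6 and 58.3 CPM in WT and above that in every knockout library, up to 215 in library 2 labelled Dgcr8 knockout and 398 in Ago1&Ago2 double knockout library 2, with a log2 fold change of 2.27 (SE 0.65, edgeR adjusted p = 0.086) in the latter group. Pgk1, phosphoglycerate kinase, went the other way in most libraries, with 10.8 and 8.96 CPM in WT, between 2.55 and 4.58 CPM in 7 knockout libraries and 23.2 CPM in Ago1&Ago2 double knockout library 2. Pgam1 lay between 4.35 and 15.0 CPM throughout. Of the coding sequence of these 3 genes 94.3% or more is shared with other transcripts.

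**Figure D4:**
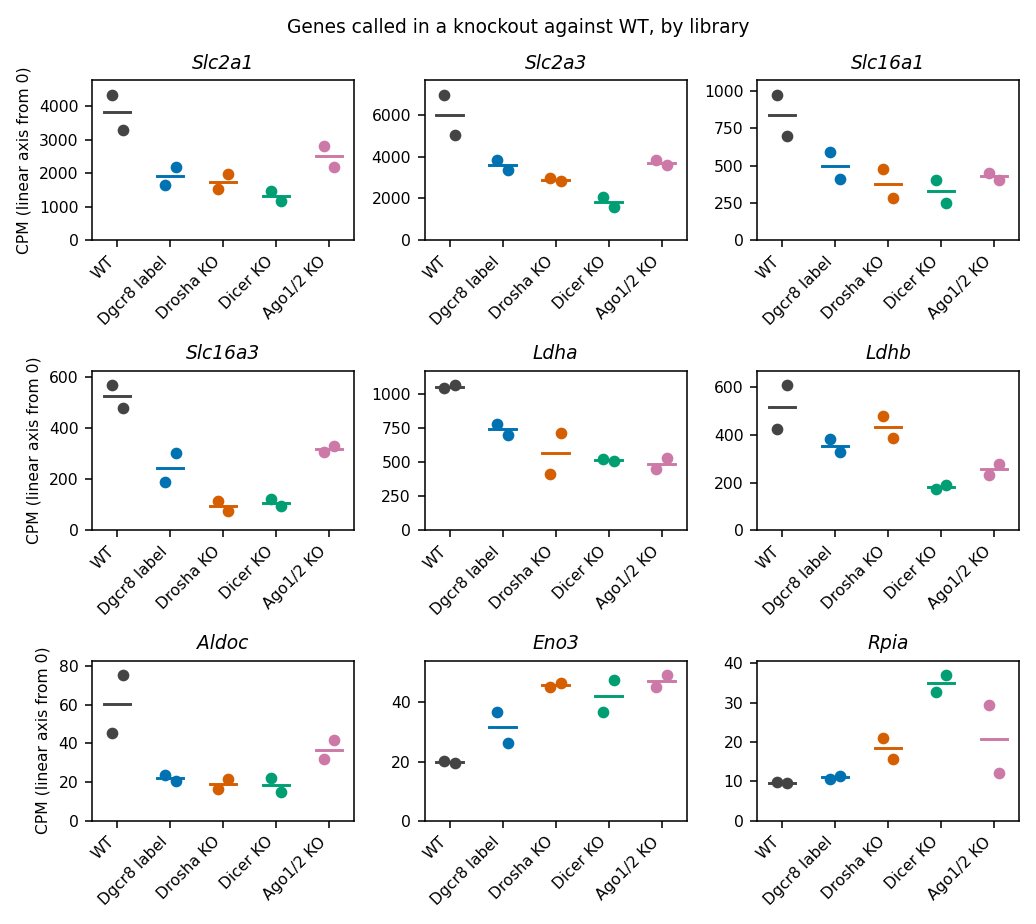
CPM (vertical axes, linear from 0, a scale for each gene) of the 9 genes that passed the test in a knockout against WT, by group (horizontal axes), with 1 point per library and a bar at the mean of the 2. The 2 WT points lie above all 8 knockout points for Slc2a1, Slc2a3, Slc16a1, Slc16a3, Ldha and Aldoc, and below all 8 for Eno3.

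All 4 genes of lactate production and export fell in the Dicer knockout. Ldha, whose subunit favours the reduction of pyruvate to lactate, had 1046 and 1069 CPM in WT, 782 and 703 under the Dgcr8 knockout label, 418 and 717 with Drosha knocked out, 529 and 513 with Dicer knocked out and 453 and 530 in the Ago1&Ago2 double knockout. Every knockout library lay below WT. The fall in the Dicer knockout was 2.03-fold (log2 fold change -1.02, SE 0.30, edgeR adjusted p = 0.049). This call, at the threshold, was lost without either WT, either Dicer knockout or either library labelled Dgcr8 knockout (edgeR adjusted p 0.055 to 0.242), without both of the last together (0.056), and with DESeq2's size factors (0.053). The Ago1&Ago2 double knockout had a log2 fold change of -1.11 (SE 0.30, edgeR adjusted p = 0.074) and the Drosha knockout -0.90 (edgeR adjusted p = 0.12).

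Ldhb, whose subunit favours the use of lactate, had 422 and 608 CPM in WT, 383 and 326 under the Dgcr8 knockout label, 480 and 387 with Drosha knocked out, 172 and 191 with Dicer knocked out and 234 and 279 in the Ago1&Ago2 double knockout. Only the Drosha knockout overlapped with WT. The fall in the Dicer knockout was 2.84-fold (log2 fold change -1.51, SE 0.29, edgeR adjusted p = 0.0078), lost without WT library 2 or Dicer knockout library 1 (-1.22 and -1.43, edgeR adjusted p = 0.113 and 0.103). The Drosha knockout had a log2 fold change of -0.25 (edgeR adjusted p = 0.67) and the Ago1&Ago2 double knockout -1.01 (edgeR adjusted p = 0.081). Ldha and Ldhb are among the genes with shared coding sequence (61.9% and 57.8%).

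Slc16a1 (chromosome 3, 104638668 to 104658462), which carries lactate and pyruvate either way, had 975 and 699 CPM in WT, 590 and 407 under the Dgcr8 knockout label, 478 and 281 with Drosha knocked out, 404 and 250 with Dicer knocked out and 448 and 405 in the Ago1&Ago2 double knockout. No knockout library reached WT. The fall in the Dicer knockout was 2.55-fold (log2 fold change -1.35, SE 0.36, edgeR adjusted p = 0.034). The call was lost without either WT or either Dicer knockout library (-1.74 to -1.05, edgeR adjusted p 0.086 to 0.222). The other log2 fold changes were -0.75 (labelled Dgcr8), -1.14 (Drosha) and -0.97 (Ago1&Ago2), with edgeR adjusted p of 0.52, 0.11 and 0.16.

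Slc16a3 (chromosome 11, 120948480 to 120960868), the lactate exporter of strongly glycolytic cells, had the largest log2 fold changes of the 34 genes in the Drosha and Dicer comparisons. It had 569 and 481 CPM in WT, 188 and 301 under the Dgcr8 knockout label, 114 and 75.6 with Drosha knocked out, 122 and 94.3 with Dicer knocked out and 308 and 332 in the Ago1&Ago2 double knockout. The Drosha and Dicer libraries lay below all others, and no knockout library reached WT. The fall was 5.55-fold in the Drosha knockout (log2 fold change -2.47, SE 0.33, edgeR adjusted p = 0.0093) and 4.84-fold in the Dicer knockout (-2.28, SE 0.33, edgeR adjusted p = 0.0026). Of the 21 calls of the 34 genes, the one in the Dicer knockout alone was kept under all 18 alternatives, with edgeR, DESeq2 and limma-voom adjusted p of 0.032 at most. The Drosha call was lost without either WT library (-2.35 and -2.59, edgeR adjusted p = 0.055 and 0.098). In the libraries labelled Dgcr8 knockout the log2 fold change was -1.10 (edgeR adjusted p = 0.30), and in the Ago1&Ago2 double knockout -0.71 (edgeR adjusted p = 0.23). Of the summed CPM per kb of Slc16a1 and Slc16a3, Slc16a3 made up 40.0% ± 2.8 (SD, n = 2) in WT, 21.0% ± 1.4 in the Drosha knockout, 26.2% ± 3.0 in the Dicer knockout and 44.1% ± 3.0 in the Ago1&Ago2 double knockout.

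**Figure D5:**
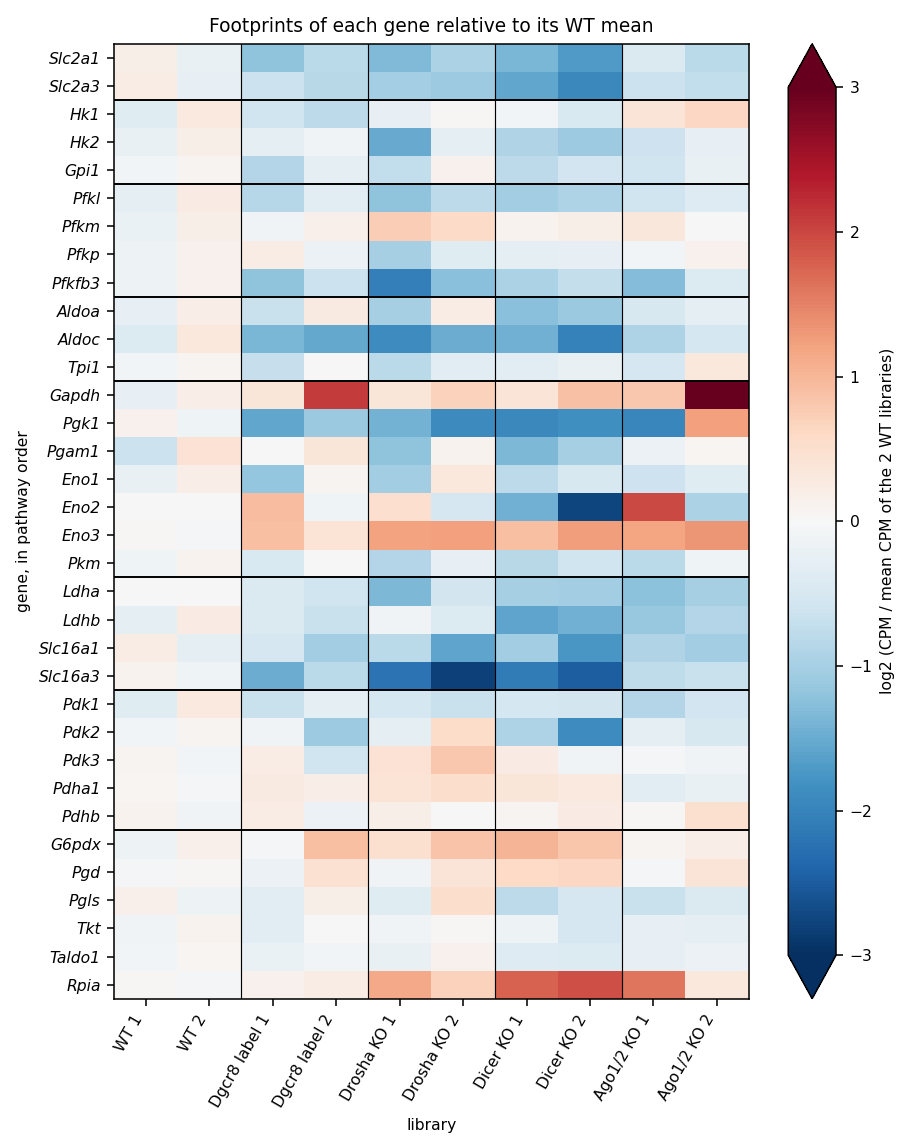
Each gene's CPM in each of the 10 libraries (horizontal axis) relative to its own WT mean, as log2, for the 34 genes (vertical axis) in pathway order. The rows of Slc2a1, Slc2a3, Slc16a1, Slc16a3 and Ldha are blue in all 8 knockout libraries, and those of Eno3 and Rpia are red in all 8.

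The entry of pyruvate into mitochondria showed no called gene. Pdk1, a kinase that shuts pyruvate dehydrogenase and a known HIF target, had 136 and 215 CPM in WT, 111 and 143 under the Dgcr8 knockout label, 122 and 110 with Drosha knocked out, 121 and 119 with Dicer knocked out and 95.4 and 117 in the Ago1&Ago2 double knockout. The last 3 groups lay below WT, with log2 fold changes of -0.60, -0.55 and -0.72 (edgeR adjusted p = 0.29, 0.25 and 0.20). Pdk2 and Pdk3 had 4.05 ± 1.83 and 65.3 ± 11.2 CPM (SD, n = 2) in the Dicer knockout against 10.2 ± 0.7 and 61.3 ± 4.5 in WT. Pdha1, the catalytic subunit of the complex, had 271 and 249 CPM in WT and between 301 and 375 CPM in the Drosha, Dicer and labelled Dgcr8 groups, with log2 fold changes from 0.24 to 0.47, and 210 and 222 CPM in the Ago1&Ago2 double knockout. Pdhb lay between 70.7 and 112 CPM in all 10 libraries.

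In the pentose phosphate pathway Rpia rose and the other 5 genes did not pass the test. Rpia (chromosome 6, 70765720 to 70792232), which makes ribose 5-phosphate, had 9.86 and 9.46 CPM in WT, 10.6 and 11.4 under the Dgcr8 knockout label, 21.1 and 15.7 with Drosha knocked out, 32.8 and 37.0 with Dicer knocked out and 29.3 and 12.0 in the Ago1&Ago2 double knockout. All knockout libraries lay above WT. The rise in the Dicer knockout was 3.60-fold (log2 fold change 1.85, SE 0.43, edgeR adjusted p = 0.019), and was not called without either WT or either Dicer knockout library (1.76 to 1.94, edgeR adjusted p 0.086 to 0.166). G6pdx, the entry enzyme, had 79.2 and 97.3 CPM in WT, 85.9 and 166 under the Dgcr8 knockout label, 122 and 160 with Drosha knocked out, 178 and 158 with Dicer knocked out and 94.1 and 101 in the Ago1&Ago2 double knockout. The Drosha and Dicer libraries lay above WT (log2 fold changes 0.68 and 0.93, edgeR adjusted p = 0.29 and 0.091). Pgd, the next NADPH-yielding enzyme, had 288 and 304 CPM in WT, 262 and 404 under the Dgcr8 knockout label, 274 and 386 with Drosha knocked out, 452 and 459 with Dicer knocked out and 283 and 386 in the Ago1&Ago2 double knockout. Its Dicer libraries lay above WT (log2 fold change 0.62, edgeR adjusted p = 0.21). Tkt and Taldo1, which link the pathway back to glycolysis, had log2 fold changes between -0.40 and -0.03 in the 4 comparisons. Pgls had 52.4 and 42.5 CPM in WT, 27.5 and 33.7 with Dicer knocked out and 30.1 and 35.2 in the Ago1&Ago2 double knockout. Its libraries of the 2 other groups overlapped with WT. Pgls, Tkt and Taldo1 lay below WT with no overlap in the Dicer and Ago1&Ago2 knockouts, as did 34.6% and 26.1% of all genes tested.

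Between knockout groups no gene of the 34 passed the edgeR test with TMM scaling and no replicate block. Each of the 6 pairs of knockout groups was tested with edgeR over all genes, and 0 genes of the list passed. Of all genes 0.501% were called between the Dgcr8 label and the Drosha knockout, 4.07% between the Dgcr8 label and the Dicer knockout, 0.483% between the Dgcr8 label and the Ago1&Ago2 double knockout, 0.00911% between Drosha and Dicer, 0.0455% between Drosha and Ago1&Ago2, and 0.547% between Dicer and Ago1&Ago2. At an unadjusted p under 0.05 there were 4, 7, 3, 4, 8 and 10 of the 34 in the same order, against 11.5%, 19.0%, 12.5%, 7.55%, 9.25% and 12.3% of all genes, so that the first 3 counts lay near the background. The smallest edgeR adjusted p were 0.053 for Rpia, lower by 1.67 on the log2 scale (SE 0.43) in the libraries labelled Dgcr8 knockout than in the Dicer knockout, and 0.056 for Slc16a3, with a log2 fold change of -1.56 (SE 0.32) in the Dicer knockout against the Ago1&Ago2 double knockout. With DESeq2's size factors 1 call was made between pairs, with total-count scaling 2, and with the replicate number as a block 8. Calls by DESeq2 and limma-voom between these pairs were not counted. So by the edgeR test with TMM scaling and no block, calls in 1 knockout and not in another are not shown to differ between them.

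The 3' UTRs of the genes were searched for the seed that the most abundant miRNAs of embryonic stem cells share, since the missing proteins make or carry miRNAs. The 5 below carry it, AAGUGCU, in capitals (bases 2 to 8), from RefSeq on GRCm38.p6.
miR-291a-3p: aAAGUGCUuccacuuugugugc
miR-294-3p: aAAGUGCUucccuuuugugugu
miR-295-3p: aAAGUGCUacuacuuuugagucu
miR-302b-3p: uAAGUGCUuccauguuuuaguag
miR-302d-3p: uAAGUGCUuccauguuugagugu

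A match to this seed, AGCACTT, lay in the 3' UTR of 3 of the 34 genes, Pfkp, Ldha and Rpia, and in that of 15.7% of the 10791 tested genes with a 3' UTR. Only 1 transcript of each gene was searched, that with the longest coding sequence, so other 3' UTRs of a gene were not covered. The sites follow, with 7 bases in capitals, from GENCODE M21.
Pfkp: tagttatttatcAGCACTTtatggaag
Ldha: tccccgtgtcctAGCACTTcactgtcc
Rpia: tctgagatgtgaAGCACTTactttttg
Of these 3, Rpia rose and Ldha fell in the Dicer knockout, and Pfkp had a log2 fold change of -0.25 (edgeR adjusted p = 0.63). None of the 4 transporters held the 7 bases in the 3' UTR searched. A match is a description of sequence, not a measured site.

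Promoters are shown because the genes for glucose uptake and lactate export fell together in the Dicer knockout. In RefSeq windows on GRCm38.p6 of 250 bases before to 50 after a start, 33 of the 34 genes had an entry. The core bound by HIF has the forms ACGTG and GCGTG, both searched on both strands. Either form lay in a window of 30 of the 33 (90.9%), of 69.6% of the 8730 genes of the table with a window, and in 43.8% of all 32851 windows. GCGTG lay in 24 of 33 (72.7%), in 58.1% of genes of the table and in 32.4% of all windows, and ACGTG in 18 of 33 (54.5%), 30.2% and 19.6%. ACGTG overlaps with the E-box CACGTG, the kind of site Myc binds, which was found in 5 of 33 (15.2%) and in 12.5% of genes of the table. Slc2a1, Slc16a1, Slc16a3, Ldha and Aldoc of the 7 lower genes held ACGTG, and all of these but Slc16a3 held GCGTG too. Ldhb, which fell, and Eno3 and Rpia, which rose, held GCGTG and not ACGTG. Slc2a3, the seventh lower gene, had no entry. The windows of 4 of them follow, 5′ to 3′ on the plus strand, with matches to ACGTG on either strand in capitals, CACGTG included, and GCGTG left in lower case.
Slc16a3, chr11:120948817-120949116: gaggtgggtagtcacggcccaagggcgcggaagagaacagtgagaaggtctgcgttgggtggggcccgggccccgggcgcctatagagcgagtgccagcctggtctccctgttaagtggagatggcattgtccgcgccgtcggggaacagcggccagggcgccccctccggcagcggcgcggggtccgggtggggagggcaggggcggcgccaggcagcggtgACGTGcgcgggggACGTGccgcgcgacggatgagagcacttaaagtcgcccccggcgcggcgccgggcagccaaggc
Slc2a1, chr4:119108495-119108794: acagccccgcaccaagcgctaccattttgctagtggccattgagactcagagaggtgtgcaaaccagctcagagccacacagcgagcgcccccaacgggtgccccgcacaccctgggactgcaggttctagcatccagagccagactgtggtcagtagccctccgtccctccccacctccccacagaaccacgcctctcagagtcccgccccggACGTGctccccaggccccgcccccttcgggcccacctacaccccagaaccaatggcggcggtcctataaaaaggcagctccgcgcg
Slc16a1, chr3:104638414-104638713: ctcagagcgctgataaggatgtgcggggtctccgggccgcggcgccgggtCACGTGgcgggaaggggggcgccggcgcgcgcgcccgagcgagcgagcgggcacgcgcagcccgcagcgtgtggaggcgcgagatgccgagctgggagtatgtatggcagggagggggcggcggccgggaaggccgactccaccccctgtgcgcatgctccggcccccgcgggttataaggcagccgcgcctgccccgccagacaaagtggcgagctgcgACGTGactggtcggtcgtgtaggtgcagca
Ldha, chr7:46845554-46845853: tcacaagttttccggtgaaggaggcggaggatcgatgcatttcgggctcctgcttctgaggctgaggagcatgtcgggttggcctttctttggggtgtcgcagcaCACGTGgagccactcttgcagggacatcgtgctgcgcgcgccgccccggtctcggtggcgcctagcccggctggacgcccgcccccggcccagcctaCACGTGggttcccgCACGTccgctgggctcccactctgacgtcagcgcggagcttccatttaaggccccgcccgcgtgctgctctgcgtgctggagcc
Slc2a1 held 1 match to ACGTG, Slc16a3 and Slc16a1 2 each and Ldha 3. ACGTG also lay in windows of genes that did not pass the test: Aldoa, Gapdh, Hk1, Hk2, Pdhb, Pdk2, Pdk3, Pfkfb3, Pfkm, Pgam1, Pgk1 and Pkm. It also lay in that of G6pdx, which did not pass. Mean CPM of G6pdx, Gapdh, Pdhb and Pfkm lay above WT in all 4 knockout groups. That of Aldoa, Hk2, Pfkfb3 and Pkm lay below WT in all 4, and the other genes just named went both ways. A match is a description of sequence, and a part of HIF or Myc in these changes was not tested.

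Other genes of carbon metabolism, a list of 46, had a row in 31 cases. Of these 2 fell and 1 rose in the Dicer knockout, where 3.76% of all genes tested were called lower and 7.35% higher. In the Ago1&Ago2 double knockout 3 fell, against 0.902% of all genes. In the Drosha knockout and in the libraries labelled Dgcr8 knockout 0 were called. Prps2, which turns ribose 5-phosphate into the precursor of nucleotides, had 125 and 141 CPM in WT and 23.5 and 29.8 in the Dicer knockout (log2 fold change -2.33, SE 0.40, edgeR adjusted p = 0.0049) and 49.4 and 36.0 in the Ago1&Ago2 double knockout (-1.64, edgeR adjusted p = 0.043). Rpe, the epimerase beside Rpia, fell in the Ago1&Ago2 double knockout from 97.1 and 85.2 to 26.5 and 32.8 CPM (log2 fold change -1.62, SE 0.26, edgeR adjusted p = 0.015). The hexokinase-like Hkdc1 had 13.1 and 21.7 CPM in WT and 0 counts in both Dicer libraries, at least 43.6-fold lower against 3 counts over the group, and 0 and 1 counts in the Drosha knockout, a ratio of 79.7 (exact binomial interval at 95%, 14.3 to 3154, counting error only). In the Ago1&Ago2 double knockout it had 0 and 7 counts (edgeR adjusted p = 0.018, not called without any one library of WT or Ago1&Ago2). The Dicer call of Hkdc1 was lost without WT library 2 or either Dicer knockout library. Ldhd, which oxidises D-lactate, rose in the Dicer knockout from 0.922 and 0.954 to 5.14 and 9.38 CPM (edgeR adjusted p = 0.035). The Prps2 call in the Dicer knockout was lost without WT library 2 or Dicer knockout library 1 (edgeR adjusted p = 0.052 and 0.070), and that in the Ago1&Ago2 double knockout without any one library of WT, Dicer or Ago1&Ago2 (0.062 to 0.318). Rpe was lost without either WT library or Ago1&Ago2 double knockout library 1 (0.052 to 0.173), and Ldhd without either WT or either Dicer knockout library (0.103 to 0.220) and with limma-voom.

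Of 19 regulators of the pathway, all in the table, 1 fell and 1 rose in the Dicer knockout. Of all genes tested 3.76% were called lower and 7.35% higher there, so that both counts lay near the background. In the 3 other comparisons 0 regulators were called. Lin28a, an RNA-binding protein that blocks the making of let-7 miRNAs, fell from 71.7 and 98.1 CPM in WT to 2.77 and 16.5 in the Dicer knockout (log2 fold change -3.33, SE 0.66, edgeR adjusted p = 0.0099), lost without WT library 2 or Dicer knockout library 1 (edgeR adjusted p = 0.072 and 0.065). Prkaa1, a catalytic subunit of the energy sensor AMPK, rose from 52.2 and 50.7 to 143 and 135 CPM (1.43, edgeR adjusted p = 0.013), lost without either WT or either Dicer knockout library (0.055 to 0.135). Hif1a and Myc, named after their values were seen, were not called, and Hif1a lay between 146 and 227 CPM in all 10 libraries. Myc had 50.2 and 54.0 CPM in WT, 13.2 and 74.3 with Drosha knocked out and 18.6 and 30.3 with Dicer knocked out (log2 fold change -1.12, SE 0.58, edgeR adjusted p = 0.24).

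Known HIF targets outside the 34 genes, a list of 20 with 18 in the table, had medians of -1.10 (labelled Dgcr8), -1.02 (Drosha), -0.92 (Dicer) and -0.55 (Ago1&Ago2) on the log2 scale. The medians over all genes tested were 0.017, -0.008, -0.003 and 0.038 in that order. Called were 2 lower in the Drosha knockout, 2 lower and 1 higher in the Dicer knockout and 1 lower in the Ago1&Ago2 double knockout. In the libraries labelled Dgcr8 knockout 0 were called. Of all genes tested 0.966%, 3.76% and 0.902% were called lower in the Drosha, Dicer and Ago1&Ago2 knockouts, and 7.35% higher in the Dicer knockout. P4ha2, a collagen prolyl hydroxylase, had 314 and 311 CPM in WT, 203 and 48.8 under the Dgcr8 knockout label and between 44.1 and 72.8 CPM in the 6 other knockout libraries, with log2 fold changes of -2.32, -2.40 and -2.29 in the Drosha, Dicer and Ago1&Ago2 knockouts (edgeR adjusted p = 0.038, 0.016 and 0.041). Kdm3a, a histone demethylase of the same list, rose in the Dicer knockout from 214 and 194 to 532 and 447 CPM (1.26, edgeR adjusted p = 0.025). These calls were lost without either WT library or either library of their own group, the P4ha2 calls in the Drosha and Ago1&Ago2 knockouts also without Dicer knockout library 2, and that in the latter without Drosha knockout library 1, at edgeR adjusted p between 0.052 and 0.247. Limma-voom did not call P4ha2 in the Drosha knockout. In the same groups 5, 9 and 8 of the 11 primitive endoderm markers fell (Drosha, Dicer and Ago1&Ago2), against 0.966%, 3.76% and 0.902% of all genes. The part of these markers in the fall of the HIF targets and of the 34 genes was not tested.

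In the citric acid cycle, which follows pyruvate dehydrogenase, 1 of 18 genes fell in the Dicer knockout and 0 were called in the 3 other comparisons. Of all genes tested 3.76% were called lower in the Dicer knockout, so that this count lay near the background. Sdhd, a membrane anchor of succinate dehydrogenase, fell from 132 and 129 CPM in WT to 48.6 and 56.3 (log2 fold change -1.32, SE 0.31, edgeR adjusted p = 0.019), lost without either WT or either Dicer knockout library (0.084 to 0.179). Cs, citrate synthase, had 363 and 414 CPM in WT and 651 and 626 in the Dicer knockout (0.72, edgeR adjusted p = 0.13). The 18 genes had a median log2 fold change of -0.25 in the Dicer knockout, against -0.66 for the 34. Markers of trophectoderm, 5 of 9 in the table, summed to 150 and 182 CPM in WT and to 857 and 618 in the Dicer knockout, and Cdx2, Elf5, Eomes and Gata3 were not in the table. Of 8 fibroblast markers 2 were in the table, with a summed level of 156 and 144 CPM in WT and between 23.7 and 80.1 CPM in the knockout libraries. The part of either in the results was not tested.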

How the data were processed

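Ribosome-protected fragments of 10 libraries, 2 for each of 5 groups, were read from 1 table of whole-number counts per gene, deposited by the authors without normalization. The tools named in the submitters' processing notes are Trimmomatic and Bowtie2, and the builds are mm10 (GRCm38) and dm6 (BDGP6). The counting tool, its strand setting and the treatment of reads with several matches are not given in the sources used here. Per the labels' protocols, Drosophila spike-ins were added, but the table held mouse genes alone. Library sizes were therefore scaled by TMM, which sees changes relative to the bulk of genes. Symbols that had become dates (16) were replaced through the gene identifiers, all 11011 of which were in GENCODE M21. For Ago1&Ago2 the replicate numbers of columns and titles differ, and those of the titles were used.

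In R 4.3.3, edgeR 4.0.16 kept 10978 genes (filterByExpr removed 33) and fitted 1 mean per group to all 10 libraries, with 5 residual degrees of freedom and a common biological coefficient of variation estimated at 0.306. Each knockout, and the mean of the 4, was compared with WT, and knockouts with each other, by 2-sided quasi-likelihood tests with Benjamini-Hochberg adjustment over all genes at 0.05. The SE was taken as the size of the log2 fold change divided by the root of F. The scripts were tested on simulated data. Sequences were compared as exact 28-base stretches, seed matches and motifs. CPM used the scaled sizes, and CPM per kb divided them by coding length. A floor of 3 counts was used for groups at 0. Intervals and floors cover counting error only, since PCR copies are not independent molecules. Nothing says that the 2 libraries of a group came from separate cultures, so the p-values cover the spread between these samples alone, which may be technical.

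The 34 genes, the other gene lists and the markers were chosen with earlier results of these data known. Full values are given for genes of the list past the threshold and for Slc2a1, Slc2a3, Hk1, Hk2, Ldha, Ldhb, Slc16a1, Slc16a3, Pdk1, G6pdx and Pgd, and up to 4 genes of each other list with the smallest adjusted p could be named. Hif1a, Myc and the further genes given in part were picked after their values were seen. Alternatives were DESeq2 1.42.0 size factors, total-count scaling, no filter, DESeq2, limma-voom (limma 3.58.1), fits of the compared groups alone, a replicate block, each library left out and, added after seeing the data, both libraries labelled Dgcr8 knockout left out.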

Additional observations from a re-analysis of the deposited data

How the results depend on the processing

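Over 18 alternatives, 4255 of 4576 values of named genes kept their side of the threshold with no change of sign beyond their SE. A call was lost in 166 and gained in 134, and 21 values without a call changed sign by more than their SE, all on leaving out a library. With DESeq2, 1 of the 34 genes was lower in the libraries labelled Dgcr8 knockout, 8 lower in the Drosha knockout, 2 lower and 2 higher in the Ago1&Ago2 double knockout, and 2 higher for the mean of the 4. With limma-voom, 1 was lower and 0 higher in the Drosha knockout, 1 higher in the Dicer knockout and 2 lower in the Ago1&Ago2 double knockout. A fit of the Dicer and WT libraries alone gave 14 lower and 4 higher. Between pairs of knockout groups 1 gene was called with DESeq2's size factors and 2 with total-count scaling. Calls by DESeq2 and limma-voom between those pairs were not counted. Without both libraries labelled Dgcr8 knockout 2 were higher for the mean. The cause was not tested.

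The replicate number as a block gave 7 lower in the Drosha knockout, 11 lower in the Dicer knockout, 3 lower and 2 higher in the Ago1&Ago2 double knockout, and 8 between pairs of knockouts. Deviations of same-numbered libraries correlated above 0.1 in 9 of 10 pairs of groups and at 0.061 between the Dgcr8 label and Drosha. The labels do not say that a number marks a shared culture, batch or day, and with 2 libraries a group these correlations do not settle whether the numbers pair them, so the block was kept as an alternative.

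Leaving out each library in turn gave 0 to 2 lower and 0 to 1 higher in the Drosha knockout, 2 to 9 lower and 0 to 3 higher in the Dicer knockout, 0 to 1 lower and 0 to 2 higher in the Ago1&Ago2 double knockout, 0 to 9 lower and 0 to 2 higher for the mean, and 0 to 2 between pairs. The median log2 fold change of the 34 ran from -0.39 to -0.15 (labelled Dgcr8), from -0.84 to -0.56 (Dicer), from -0.46 to -0.19 (Ago1&Ago2) and from -0.63 to 0.014 (Drosha, where it was also above 0, at 0.0015, without WT library 2).

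Over all genes, edgeR called 2 lower and 6 higher (labelled Dgcr8), 106 and 272 (Drosha), 413 and 807 (Dicer), 99 and 217 (Ago1&Ago2) and 358 and 418 (mean). DESeq2 called 58 and 103, 341 and 631, 683 and 1189, 328 and 603, and 520 and 924 in that order. Limma-voom called 7 and 8, 12 and 99, 246 and 799, 426 and 516, and 439 and 525. The block gave 4 and 10, 300 and 470, 747 and 1130, 270 and 468, and 682 and 728. Fits of the compared groups alone gave 0 and 0 for the Dgcr8 label, 1427 and 1797 for Dicer, and 211 lower for Drosha and 216 lower for Ago1&Ago2. Without both libraries labelled Dgcr8 knockout 164 were lower for Drosha, 170 lower for Ago1&Ago2, and 583 lower and 785 higher for the mean. With a library left out the lower calls ran from 0 to 50, 0 to 166, 40 to 537, 1 to 172 and 2 to 506, and the higher ones from 0 to 57, 1 to 349, 89 to 968, 2 to 322 and 1 to 594. Depth limits the low genes most: the smallest count was 1 for Eno2, 5 for Pgk1 and 9 for Pgam1 in a library.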
